A study of Mus musculus with 9 samples.

Results

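The 33 genes described here are the S phase and replication genes of mouse thymocytes, found by symbol among the 31053 genes listed in each of 3 single-cell matrices. All 33 were found. They comprise 6 subunits of the MCM helicase (Mcm2 to Mcm7), 5 genes for helicase loading and origin firing, 5 for DNA synthesis, 4 for nucleotide supply, 5 for chromatin, 5 for checkpoint and repair, and 3 transcription factors. Thymocytes came from adult female mice. Cells carrying CD3ε I173A, an amino acid change in a signalling subunit of the T cell receptor (TCR) complex, were marked with hashtag 6, an oligonucleotide-tagged antibody, and wild-type (WT) cells with hashtag 4. They were sorted on surface CD4 and CD8 into CD4 single-positive (CD4SP), CD8 single-positive (CD8SP) and double-positive (DP) cells and sequenced on the 10x 5′ platform, so both genotypes of a gate share a library. How many mice were used, their age in weeks and their strain are not given in the sources used here. Each genotype is 1 sample per gate. No p-value is therefore given, every interval is a 95% interval that covers counting error only, and "higher" and "lower" describe these samples.

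A cell commits to S phase when E2F transcription factors turn on the genes of replication. MCM helicases are loaded on origins in G1 by Cdc6 and Cdt1, are activated in S phase with Cdc45 and the GINS complex, and open the DNA for polymerases that work on the PCNA clamp. In the thymus most divisions follow a successful TCRβ rearrangement, when cells pass through an immature CD8+ stage into the DP stage. Small DP cells then stop dividing and rearrange the TCRα chain.

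The I173A and WT groups held 2664 and 3109 cells in the CD4SP gate, 2872 and 3017 in the CD8SP gate, and 2706 and 2516 in the DP gate. Median UMIs (unique molecular identifiers, here the count of RNA molecules) per I173A and WT cell were 5786.5 and 6079 in CD4SP, 5271.5 and 5704 in CD8SP, and 2750.5 and 2906.5 in DP. Between 43 and 52 analysed barcodes were shared by each pair of libraries. Rearranging DP markers (8 genes, among them Rag1 and Rag2) summed to 6521 CPM (counts per 1000000 UMIs of the group) in I173A and 5896 CPM in WT cells of the DP gate, and to at most 599 CPM in the other gates. Mature CD8 SP markers (9 genes) summed to 3833 CPM in I173A and 2956 CPM in WT cells of the CD8SP gate, and to at most 172 CPM in DP. In the CD4SP gate the same list summed to 2375 CPM in I173A and 2476 CPM in WT cells. It therefore sets the single-positive gates apart from DP more than from each other. Macrophage or dendritic markers moved with genotype in the CD8SP gate (158 CPM in I173A and 26.3 CPM in WT, 3 of 8 lower in I173A, none at 0), and their part in the results was not tested. In summed expression, fewer dividing cells and less RNA per dividing cell cannot be told apart.

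The replication genes were lower in I173A than in WT cells of the DP and CD8SP gates, and close to WT in the CD4SP gate. Their summed level was 1994 CPM in I173A and 3680 CPM in WT DP cells, a ratio of 0.542 (0.532 to 0.552). In the CD8SP gate it was 2095 CPM in I173A and 3624 CPM in WT cells, a ratio of 0.578 (0.571 to 0.585). In the CD4SP gate it was 891 CPM in I173A and 974 CPM in WT cells, a ratio of 0.914 (0.895 to 0.934). A gene was called measured at 5 CPM or more over both genotypes pooled, and called lower past a ratio of 1.5-fold. All 33 members were measured in DP, and 27 were called lower; among all 9446 genes measured there, 5.49% were. All 33 were measured in CD8SP, and 30 were called lower, against 4.9% of all 9127 measured genes. With every cell thinned at random to 1500 UMIs, so that deep cells count no more than others, 18 of the 32 measured members were called lower in CD8SP, against 3.47% of all genes measured that way. The count was then 21 of 33 in DP (4.89% of all genes) and 1 of 25 in CD4SP (1.32%). As sequenced, in CD4SP 29 members passed the floor (28 of them in both genotypes) and 0 were called lower, against 0.335% of all 9241 measured genes. No member was called higher in any gate, against 3.85% of all measured genes in DP, 1.36% in CD8SP and 0.79% in CD4SP. The median log2 ratio of the measured members was −0.91 in DP, −0.86 in CD8SP and −0.17 in CD4SP, beside 0.08, 0.03 and 0.04 over all genes measured in the same gates.

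**Figure D1:**
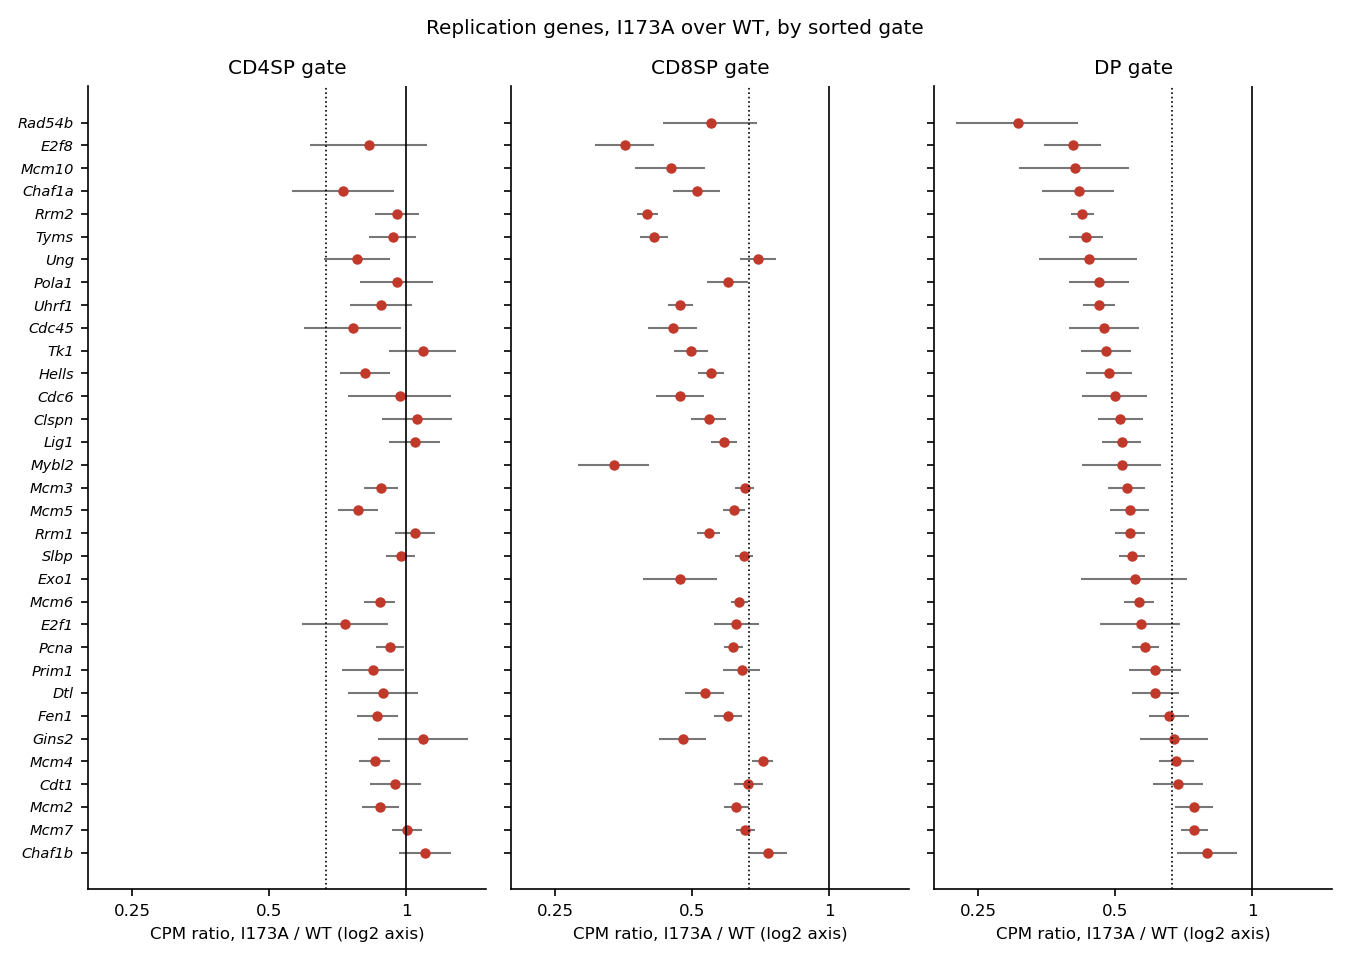
Ratio of the level in I173A cells to that in WT cells (log2 axis) for each measured replication gene, with 95% intervals for counting error, in the CD4SP, CD8SP and DP gates. The solid line marks equal levels and the dotted line the 1.5-fold call: all 33 genes lie left of 1 in CD8SP and DP, while 7 of the 29 measured in CD4SP lie right of it.

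Among the helicase subunits, which form the ring that unwinds DNA at the fork, the summed level was 583 CPM in I173A and 918 CPM in WT DP cells (ratio 0.635). Mcm6 (chr1:128331575-128359705, GRCm38.p6) had 116 CPM in I173A and 205 CPM in WT DP cells, 181 CPM in I173A and 285 CPM in WT CD8SP cells, and 64.5 CPM in I173A and 73.8 CPM in WT CD4SP cells. Its ratio was 0.565 (0.523 to 0.609) in DP, 0.634 (0.608 to 0.662) in CD8SP and 0.874 (0.808 to 0.946) in CD4SP. Mcm3 (chr1:20802966-20820312) had the lowest DP ratio of the ring, 0.531 (74.4 CPM in I173A and 140.1 CPM in WT). The subunits differed among themselves: in DP cells that of Mcm3 (0.483 to 0.583) did not overlap those of Mcm2 (0.745, 0.677 to 0.820) or Mcm7 (0.746, 0.696 to 0.8). In the CD8SP gate the 6 subunits lay closer together, between 0.618 for Mcm5 and 0.715 for Mcm4.

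The genes that load and start the helicase were lower by a wider range. Mcm10 (chr2:4990724-5012791), which helps to activate the loaded helicase, had 8.31 CPM in I173A and 20.4 CPM in WT DP cells (ratio 0.408, 0.308 to 0.537), and 9.64 and 21.5 CPM in CD8SP. Cdt1 (chr8:122568015-122573130), the loading factor that is destroyed once S phase starts, had 45.3 CPM in I173A and 65.8 CPM in WT DP cells (ratio 0.688, 0.606 to 0.780). Its DP interval lies above that of Mcm10. Cdc6, its partner, had a DP ratio of 0.499 (0.423 to 0.587), and Cdc45, which joins the helicase at firing, a ratio of 0.473 (0.396 to 0.563). Gins2, a subunit of the GINS complex, had 21.2 CPM in I173A and 44.5 CPM in WT CD8SP cells (ratio 0.476, 0.422 to 0.537), while its DP ratio was 0.674 (0.566 to 0.801).

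The synthesis genes covered the clamp, the priming polymerase and the processing of Okazaki fragments. Pcna (chr2:132249286-132253180), the sliding clamp, had 137.3 CPM in I173A and 236 CPM in WT DP cells (ratio 0.583, 0.543 to 0.625), 148 and 240.0 CPM in CD8SP, and 78.3 and 85.0 CPM in CD4SP. A pseudogene of similar sequence, Pcna-ps2, has a row of its own in the matrices, so how reads were split between them is uncertain. Pola1 (chrX:93304766-93632387), the catalytic subunit of the priming polymerase α, had 27.8 CPM in I173A and 60.5 CPM in WT DP cells (ratio 0.460, 0.395 to 0.535). Fen1, the flap nuclease, and Lig1, the ligase that seals Okazaki fragments, had DP ratios of 0.657 and 0.516.

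Nucleotide supply was the role with the lowest summed ratio in both gates, 0.457 in DP and 0.451 in CD8SP. The transcription factors came close behind in both, and the difference between these roles was not tested. Rrm2 (chr12:24708254-24714146), the small subunit of ribonucleotide reductase, had 179.6 CPM in I173A and 424 CPM in WT DP cells (ratio 0.423, 0.399 to 0.449) and 101.1 and 254 CPM in CD8SP (0.398, 0.377 to 0.420). In CD4SP it had 34.2 CPM in I173A and 35.8 CPM in WT cells (0.955, 0.855 to 1.07). Rrm1, the large subunit of the same enzyme, was less far from WT, with DP and CD8SP ratios of 0.539 and 0.543, and its intervals did not overlap those of Rrm2 in either gate. Tyms, which makes thymidylate, had ratios of 0.432 in DP and 0.412 in CD8SP. Tk1, the salvage thymidine kinase, had ratios of 0.478 and 0.497 in the same gates.

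Among chromatin genes, Chaf1a and Chaf1b encode partner subunits of CAF-1, which puts histones on new DNA, and they differed from each other. Chaf1a (chr17:56040416-56068026) had 19.3 CPM in I173A and 46.4 CPM in WT DP cells (ratio 0.415, 0.346 to 0.496). Chaf1b had 33.7 CPM in I173A and 42.3 CPM in WT DP cells (0.797, 0.685 to 0.927), the mildest ratio of all 33 members in DP and, at 0.735, in CD8SP. Slbp (chr5:33640055-33652574), which binds the stem-loop of histone mRNA, had 147.1 CPM in I173A and 270.5 CPM in WT DP cells (0.544, 0.509 to 0.582) and 165 and 254 CPM in CD8SP. Uhrf1, which brings the maintenance DNA methyltransferase to new strands, had ratios of 0.461 in DP and 0.471 in CD8SP.

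Rad54b (chr4:11558920-11615808), a homologous recombination factor, had the lowest DP ratio of all members, 0.306 (0.223 to 0.414), from 6.35 CPM in I173A and 20.8 CPM in WT cells. Those levels rest on 55 and 210 UMIs. Clspn (chr4:126556957-126594533), which passes the stalled-fork signal to Chk1, had 50.2 CPM in I173A and 97.8 CPM in WT DP cells (0.513, 0.458 to 0.575). Ung, the uracil glycosylase, behaved differently in each gate: 10.5 CPM in I173A and 24.0 CPM in WT DP cells (0.438, 0.340 to 0.559), and 40.9 and 58.6 CPM in CD8SP (0.697, 0.636 to 0.764). These intervals do not overlap.

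Of the transcription factors, E2f8 (chr7:48866429-48882073), an atypical E2F that represses replication genes later in S phase, had 29.8 CPM in I173A and 73.9 CPM in WT DP cells (0.403, 0.349 to 0.465). In CD8SP it had 12.6 CPM in I173A and 35.4 CPM in WT cells (0.355, 0.305 to 0.413). E2f1, an activating E2F, had milder ratios of 0.569 in DP and 0.625 in CD8SP. Mybl2, the B-Myb factor that bridges to the G2/M programme, had 9.02 CPM in I173A and 26.8 CPM in WT CD8SP cells, a ratio of 0.337 (0.281 to 0.401) that was the lowest of all members in this gate. Its DP ratio was 0.518 (0.423 to 0.632).

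In the CD4SP gate the intervals of 13 members lay wholly below 1 and none wholly above. These counts are not set beside those over all measured genes, so they do not set the members apart. The lowest member ratios in the CD4SP gate were 0.727 (0.561 to 0.94) for Chaf1a, 0.735 (0.591 to 0.911) for E2f1 and 0.763 (0.595 to 0.974) for Cdc45. Chaf1b, Gins2, Tk1, Clspn, Rrm1, Lig1 and Mcm7 had ratios above 1, at most 1.10 (0.965 to 1.25) for Chaf1b. Mcm10, Rad54b, Exo1 and Mybl2 did not reach the floor in this gate.

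E2F sites are a known feature of replication gene promoters. RefSeq promoter sequences (GRCm38.p6, 250 bases before to 50 after the start site) were found for 29 of the 33 members, 34 promoters in all. The 8-letter E2F motifs TTTCCCGC, TTTCGCGC, TTTGGCGC and TTTGCCGC, searched on both strands, occurred in 12 of 34 promoters (35.3%), against 2.26% of all 32851 promoters of the same length. The CHR letters TTTGAA and TTCGAA, an element of G2/M promoters, occurred in 14.7% of member promoters and 19.2% of all promoters, but in 75.8% of the promoters of a list of 34 G2/M genes, of which 3.03% held an E2F motif. The letters CCAAT occurred in 58.8% of member promoters and 37.4% of all promoters. The stretches below show the motif in 6 members, written 5′ to 3′ on the strand of the gene with the E2F letters, overlapping matches joined, in capitals.
Mcm6, chr1:128359715-128359845, minus strand: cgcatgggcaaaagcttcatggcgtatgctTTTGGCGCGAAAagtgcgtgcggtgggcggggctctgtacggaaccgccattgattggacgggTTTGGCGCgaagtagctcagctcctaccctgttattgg
Mcm5, chr8:75109326-75109397, plus strand: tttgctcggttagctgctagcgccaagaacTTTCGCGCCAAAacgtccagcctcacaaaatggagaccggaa
Cdc6, chr11:98907983-98908050, plus strand: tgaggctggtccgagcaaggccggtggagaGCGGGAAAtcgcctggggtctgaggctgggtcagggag
Pola1, chrX:93632256-93632323, minus strand: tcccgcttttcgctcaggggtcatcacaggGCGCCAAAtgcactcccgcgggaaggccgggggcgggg
Hells, chr19:38930898-38930965, plus strand: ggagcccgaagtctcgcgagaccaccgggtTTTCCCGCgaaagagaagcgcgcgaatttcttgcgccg
Dtl, chr1:191575545-191575582, minus strand: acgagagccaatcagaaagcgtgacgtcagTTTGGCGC
Mcm6 and Mcm5 each hold overlapping matches on opposite strands. These 6 genes had DP ratios between 0.460 (Pola1) and 0.613 (Dtl). Among genes whose promoters held no match to these letters, Rrm2 and Chaf1a had lower ratios (0.423 and 0.415). Chaf1b and Mcm2, also without a match, had ratios above that range, as did Mcm7 and Cdt1, which held a match. Whether the ratios go with a match was not tested. A match is a description of the letters and not evidence of binding.

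The level of the members differed between gates as well as between genotypes. In WT cells all 33 had CD8SP and DP levels with intervals above the CD4SP level. Between DP and CD8SP, 12 members had a WT ratio wholly above 1, 12 wholly below 1, and the other 9 were not separated beyond counting error. E2f8 (ratio of DP to CD8SP 2.09), Rad54b (1.95) and Rrm2 (1.67) stood highest in DP relative to CD8SP, and Ung (0.409), Mcm3 (0.666), Cdt1 and Mcm6 (0.719 each) lowest. In I173A cells 32 members were higher in DP than in CD4SP beyond counting error, and Ung was lower. Gates were not compared in this way over all genes, so these counts do not tell the members from other genes.

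The level of each gene was set against the cycle in cells classed by the 34 G2/M genes, which share no gene with the members. The lower classes mix cells before G2 with cells that may not divide. A gene's highest class therefore does not by itself place it in G1 or S phase. Each cell was thinned to 1500 UMIs, and 288 I173A and 310 WT DP cells below that depth were left out. With both genotypes pooled, 27 of 33 members were highest in DP cells with 5 to 9 G2/M UMIs, and Rrm1, Rrm2, Tyms, Clspn, Rad54b and E2f8 were highest in cells with 10 or more. Ung was 111 CPM at 5 to 9 G2/M UMIs and 6.6 CPM at 10 or more, the steepest drop of all members. Mcm6 was 635 CPM and 332 CPM in the same classes, whereas Rrm2 was 801 CPM and 1048 CPM. In CD8SP cells Ung, Mcm2, Mcm10, Chaf1a and Chaf1b were highest in cells with 2 to 4 G2/M UMIs. The 6 members highest in the top class of DP had a median log2 I173A to WT ratio of −1.23 (−1.71 to −0.89), and the other 27 a median of −0.88 (−1.29 to −0.33). The classes pool the genotypes and the ranges overlap, so this is a description only.

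**Figure D2:**
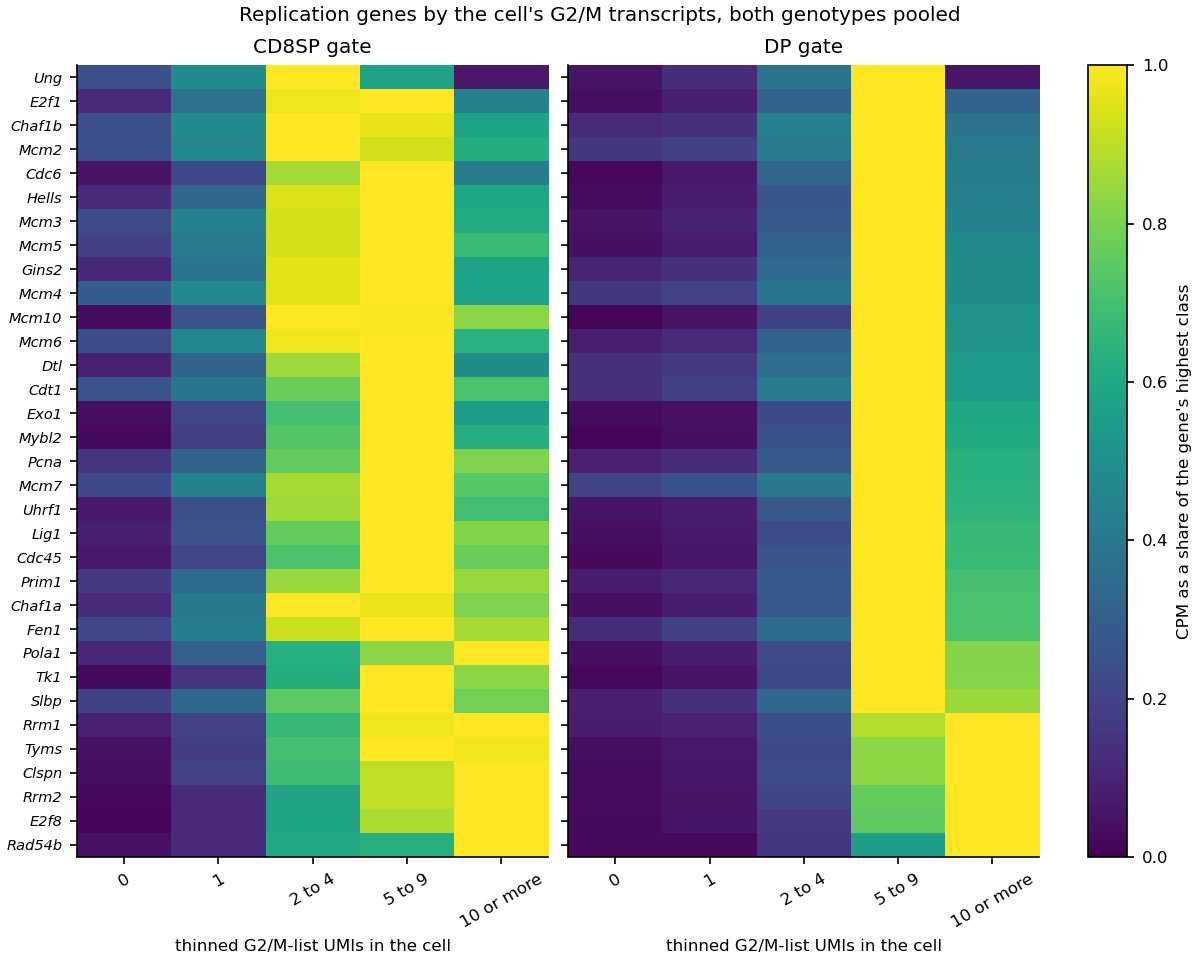
Level of each replication gene (rows, CPM as a share of the gene's highest class) in CD8SP and DP cells of both genotypes pooled, classed by thinned UMIs of 34 G2/M genes (columns). Ung, E2f1 and the MCM genes fade in cells with 10 or more G2/M UMIs, while Rrm2, E2f8 and Rad54b are highest there.

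Cells were called S-positive with 4 or more member UMIs after thinning, and G2/M-positive with 2 or more UMIs of the G2/M list. The S-positive share counts the same 33 genes, so it cannot tell fewer cells in S phase from less RNA per cell either. S-positive cells made up 7.69% of I173A (6.66% to 8.83%) and 17.5% of WT DP cells (16.0% to 19.2%), a ratio of 0.438 (0.366 to 0.524). In the CD8SP gate they made up 14.9% of I173A and 24.9% of WT cells (0.596, 0.528 to 0.673). In the CD4SP gate they made up 3.69% of I173A and 4.74% of WT cells (0.780, 0.597 to 1.02), not separated at this depth. As a background in DP, the largest rearranging DP-like cluster described further on (cluster 0) was S-positive in 3.67% of cells of both genotypes. The CD8SP gate had no such common level: of its large clusters with few G2/M UMIs, cluster 1 was S-positive in 5.99% of I173A (4.70% to 7.51%) and 7.76% of WT cells (6.23% to 9.53%), and cluster 4 in 14.4% (12.3% to 16.7%) and 19.8% (17.4% to 22.5%). These 2 clusters held 213 of the 417 S-positive I173A and 273 of the 740 S-positive WT cells of that gate. In DP, 10.5% of I173A and 10.2% of WT cells lay within 1 UMI of the S-positive threshold.

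Within DP, the gap was widest for cells that were S-positive and G2/M-positive together: 4.80% of I173A and 14.3% of WT cells (ratio 0.335, 0.268 to 0.416). S-positive cells with under 2 G2/M UMIs were 2.89% of I173A and 3.22% of WT cells (0.899, 0.637 to 1.27). G2/M-positive cells with under 4 member UMIs were 17.0% of I173A and 17.1% of WT cells (0.995, 0.863 to 1.15). Both shares lay near those of cluster 0 in the same gate, where 3.08% of I173A and 2.87% of WT cells fell in the first of these classes and 16.4% and 16.0% in the second, so they were not read as dividing cells. Cluster 0 itself held 57 of the 70 I173A and 43 of the 71 WT cells of the first class. Of the second it held 303 of 411 and 240 of 377. The likeness is thus partly that of a part to its whole, and whether the remaining cells divide was not tested. The doubly positive class was 0.594% of I173A and 0.801% of WT cells in cluster 0. In CD8SP the doubly positive cells were 7.06% of I173A and 14.3% of WT cells (0.495, 0.416 to 0.588). There the S-positive, G2/M-negative cells were also fewer, 7.81% of I173A and 10.7% of WT cells (0.731, 0.613 to 0.871).

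**Figure D3:**
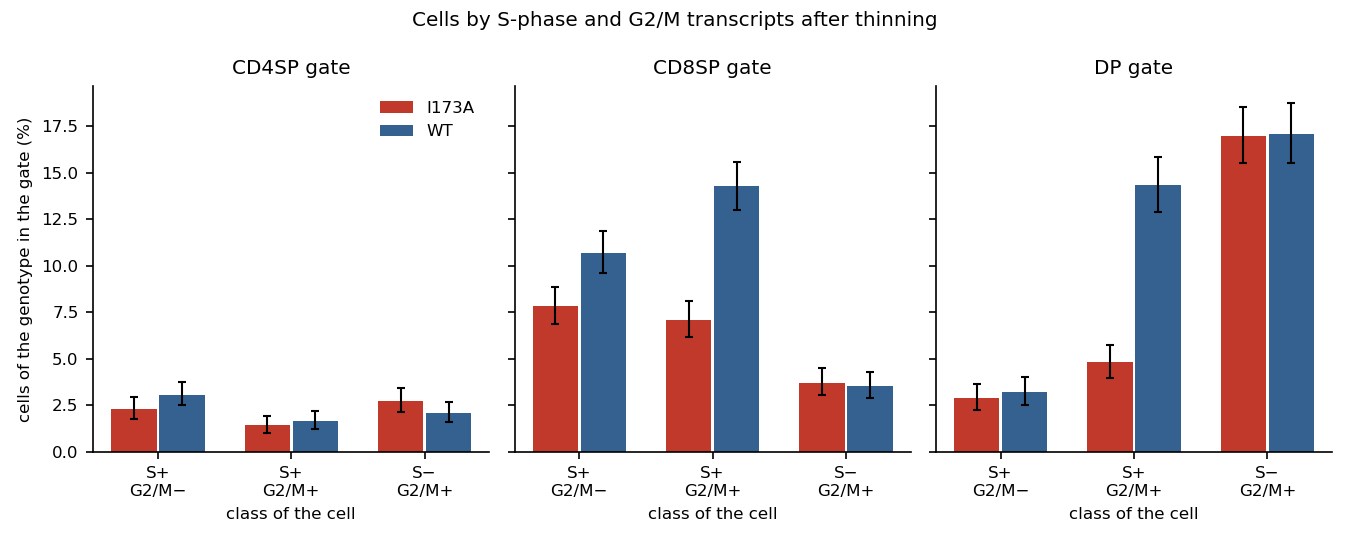
Share of I173A (left bar) and WT (right bar) cells of each gate that were S-positive only, positive for both, or G2/M-positive only, after thinning to 1500 UMIs. Error bars are exact 95% binomial intervals. The doubly positive class is lower in I173A in CD8SP and DP. The G2/M-positive only class of DP (17.0% of I173A and 17.1% of WT cells) lies near the 16.4% and 16.0% of cluster 0, which held most of its cells.

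In DP the level of the replication genes was closer between genotypes in cells with 0 or with 5 or more G2/M UMIs than in those between. In DP cells with 10 or more G2/M UMIs (87 I173A and 290 WT cells) the members summed to 7697 CPM in I173A and 6896 CPM in WT (ratio 1.12, 1.09 to 1.15). In those with 5 to 9 (40 and 62 cells) they summed to 9747 CPM in I173A and 9906 CPM in WT (0.984, 0.94 to 1.03). The ratio was 0.571 (0.545 to 0.598) in DP cells with 2 to 4 and 0.588 (0.554 to 0.625) in those with 1. It was 0.912 (0.864 to 0.964) in the largest class, with 0 (1189 I173A and 963 WT cells). In CD8SP cells the ratio was below 1 in every class, from 0.558 with 1 G2/M UMI to 0.883 with 5 to 9. In CD4SP it lay between 0.526 with 2 to 4 (65 I173A and 60 WT cells) and 1.07 with 5 to 9 (20 and 15 cells). In G2/M-negative cells 13 of 29 measured members were still called lower in DP (1.38% of all genes measured in these cells) and 15 of 28 in CD8SP (1.23%), with 0 of 22 in CD4SP (0.384%). None was called higher in these cells, against 2.43%, 0.628% and 0.866% of all measured genes in DP, CD8SP and CD4SP. In G2/M-positive cells 5 of 33 members were called lower in DP (4.84% of all genes measured there), 2 of 33 in CD8SP (5.13%) and 1 of 33 in CD4SP (6.07%), with none higher (9.35%, 9.03% and 9.16%). In DP, cluster 0 held 314 of the 527 I173A and 252 of the 693 WT G2/M-positive cells. That class therefore differs between genotypes in its mix of cells and does not give a level in dividing cells. Cells classed G2/M-negative can still be in S phase, since this list marks the later cycle.

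Clusters were made without the members and without 83 other replication genes, so those genes did not enter the clustering directly. Other cell cycle genes were not left out by this rule, and cluster 9 was led by histone genes such as Hist1h1a. The clusters can therefore follow the cell cycle, and likeness of member levels within a cluster may be partly built in. Cells with hashtag 5, which has no genotype in the labels, were clustered with the others, and a cluster's mean UMIs per thinned cell include them. Among 23 clusters, 9, 11, 14 and 18 were cycling-like by their markers, and 12, led among others by Cdc6 and Ccne2, stayed unnamed. Clusters 9, 12 and 14 were shared by the DP and CD8SP gates. They held 5.03% of I173A (4.23% to 5.92%) and 15.7% of WT DP cells (14.3% to 17.2%), a ratio of 0.320 (0.261 to 0.390), and 67.8% and 88.3% of the DP member UMIs. In CD8SP they held 2.79% of I173A and 10.4% of WT cells (0.267, 0.206 to 0.342), with 23.6% and 60.7% of the member UMIs. Within them the members summed to 8975 CPM in I173A and 7904 CPM in WT DP cells, and to 7055 and 8277 CPM in CD8SP. The rearranging DP-like clusters 0 and 5 held 84.0% of I173A and 74.0% of WT DP cells, at 759 and 732 CPM.

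Cluster 11, cycling-like cells of the single-positive gates, had similar shares in both genotypes. It held 4.07% of I173A and 4.38% of WT CD8SP cells (0.931, 0.720 to 1.20), and the members summed to 6656 CPM in I173A and 6302 CPM in WT cells (1.06, 1.03 to 1.09). Cluster 18 had 13.7 G2/M UMIs and 0.948 member UMIs per thinned cell, so its cells held G2/M but few S phase transcripts. Its members summed to 825 CPM in I173A and 832.5 CPM in WT CD8SP cells. Cluster 4, a large unnamed cluster of CD8SP cells with few G2/M UMIs, had 1571 CPM in I173A and 1923 CPM in WT (0.817, 0.796 to 0.839).

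**Figure D4:**
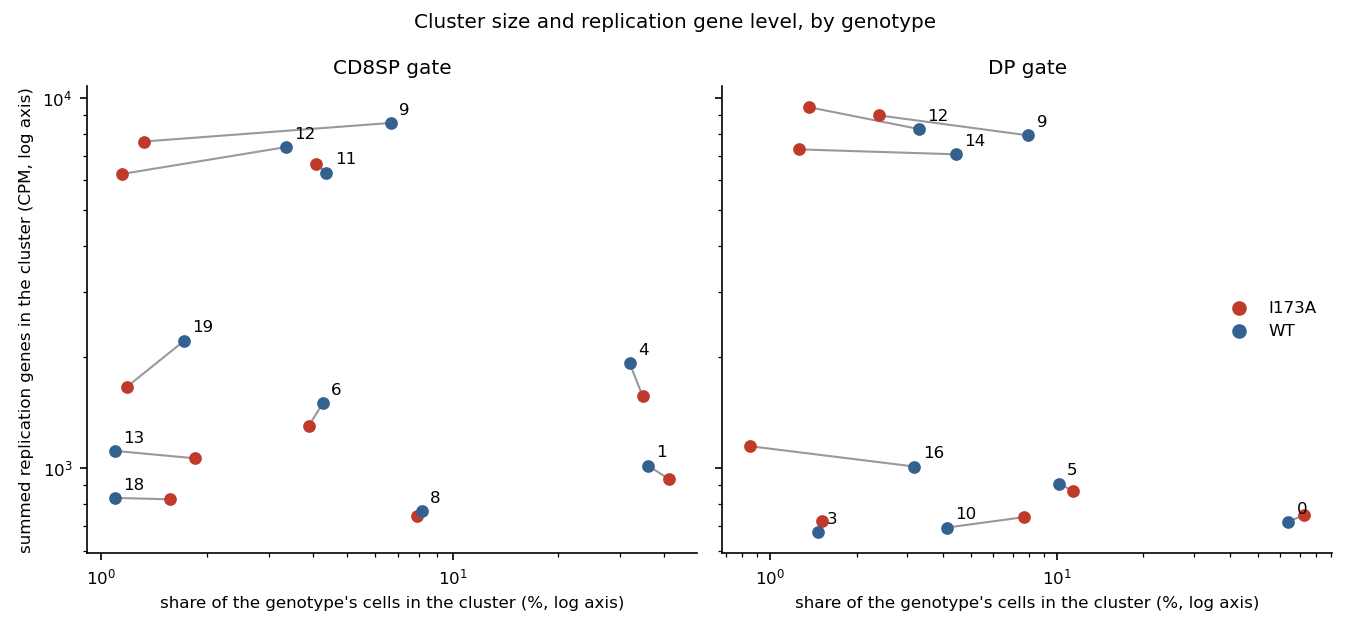
Share of each genotype's cells in a cluster (x axis, %, log scale) against the summed level of the 33 replication genes in it (y axis, CPM, log scale), for clusters with 20 or more cells of each genotype in CD8SP or DP. Lines join the genotypes of a cluster: 9 and 12 (both gates) and 14 (DP) lie further left in I173A at level ratios between 0.847 and 1.15, and 11 lies at nearly the same place in both genotypes.

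TCR libraries of the same cells gave a readout independent of these genes. Of the cells of clusters 9, 12 and 14, a productive TCRα (TRA) contig was found in 11.3% of I173A (5.28% to 20.3%) and 5.08% of WT cells (2.93% to 8.12%) in the CD8SP gate. In cluster 11 it was found in 92.3% of I173A and 96.2% of WT CD8SP cells. CD8SP cells with a productive TCRβ (TRB) but no TRA were S-positive in 22.3% of 346 I173A cells (18% to 27.0%) and 55.8% of 534 WT cells (51.5% to 60.1%). Their members summed to 3772 CPM in I173A and 6945 CPM in WT (ratio 0.543, 0.531 to 0.555). CD8SP cells with TRA were S-positive in 13.8% of I173A and 17.7% of WT cells, at 1831 and 2123 CPM (0.862, 0.848 to 0.876). In the DP gate, cells with TRB but no TRA were S-positive in 9.55% of I173A and 23.5% of WT cells (level ratio 0.567), and those with TRA in 3.93% and 6.93% (0.587, 0.560 to 0.614). Cells with no productive chain had a level ratio of 0.388 (0.361 to 0.416) in CD8SP, below that of the cells with TRB and no TRA, and of 0.842 (0.798 to 0.888) in DP. They were S-positive in 15% of I173A and 31.2% of WT cells in CD8SP, and in 11.7% of I173A and 16.7% of WT cells in DP. Finding a chain depends on depth: median UMIs of the CD8SP cells with TRB and no TRA differed between genotypes, at 4835.5 in I173A and 8070 in WT. Rearranging DP markers also moved in the CD8SP gate, at 224 CPM in I173A and 599 CPM in WT (8 of 8 lower), and their part in the result was not tested.

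**Figure D5:**
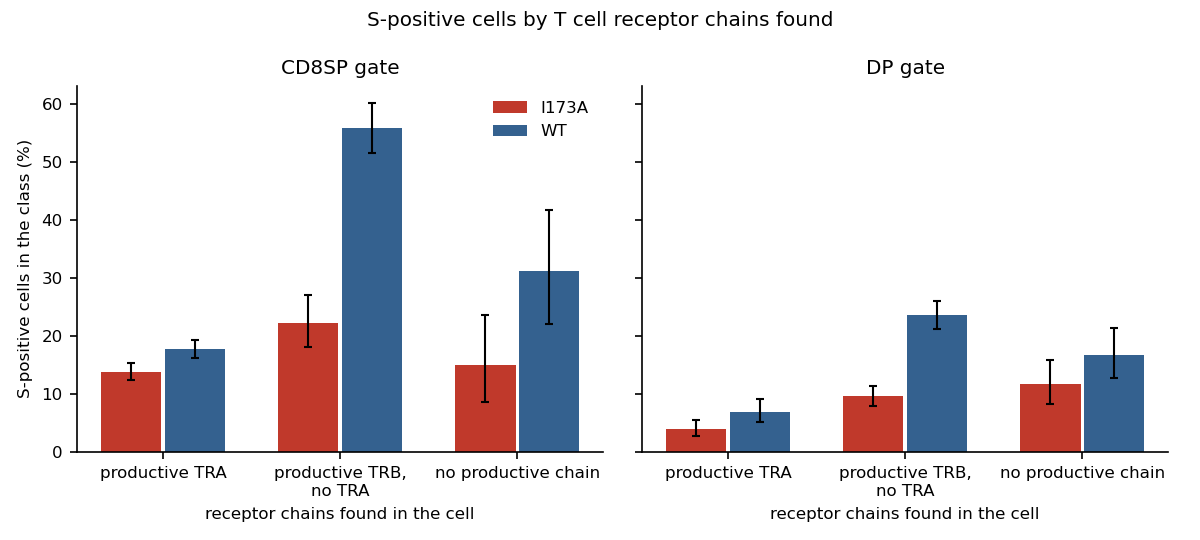
Share of S-positive cells among I173A (left bar) and WT (right bar) cells of the CD8SP and DP gates, by the productive TCR chains found. Error bars are exact 95% binomial intervals. The widest gap is in CD8SP cells with TRB and no TRA, 22.3% in I173A and 55.8% in WT.

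Other replication genes, from a list of 83 that share no gene with the members, were lower less uniformly. Past 1.5-fold 43 of 82 measured were lower in DP and 35 of 83 in CD8SP, against 5.49% and 4.9% of all measured genes. In CD4SP 0 of 75 were lower, against 0.335%. None was higher, against 3.85%, 1.36% and 0.79% of all measured genes in DP, CD8SP and CD4SP. Median log2 ratios of the list were −0.65, −0.54 and −0.07 in the same order. E2f7, the partner repressor of E2f8, had 11.3 CPM in I173A and 34.1 CPM in WT DP cells (0.332), and Rad51ap1, a recombination factor, 22.5 and 67.1 CPM (0.336). Ccne2, a cyclin of S phase entry, had a CD8SP ratio of 0.392, and Dna2, a nuclease and helicase, 0.353. At the other end, Rrm2b, the p53-inducible reductase subunit used outside S phase, had 17.8 CPM in I173A and 14.9 CPM in WT DP cells (1.19, 0.946 to 1.5). Pold4, a small subunit of polymerase δ, had ratios of 1.22 in DP and CD8SP with intervals above 1. Dck, a salvage kinase, had 45.5 CPM in I173A and 33.9 CPM in WT CD4SP cells (1.34, 1.21 to 1.49). All 34 G2/M genes were called lower in DP and 30 of 34 in CD8SP (5.49% and 4.9% of all measured genes). In CD4SP 0 of 28 measured were called lower (0.335%). Median log2 ratios of the G2/M genes were −1.35, −0.78 and −0.10 in DP, CD8SP and CD4SP. Mki67, a marker of dividing cells, had 249.5 CPM in I173A and 732 CPM in WT DP cells (0.341), and Top2a 272 and 721 CPM (0.378).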

How the data were processed

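The authors deposited raw UMI counts, of genes and hashtags together, for 3 libraries. The submitters' processing notes name Cell Ranger 6.0.1 and the builds GRCm38 and mm10; per the file headers the matrices come from software version 3.1.0. The libraries held 9081 (CD4SP), 9239 (CD8SP) and 8670 (DP) barcodes, with 60770018, 65934387 and 31269793 UMIs. Genotypes were assigned from hashtags (10 counts or more, and 4 times each other hashtag), and barcodes with several hashtags (4.20%, 5.43% and 5.72%) were left out, so doublets within a genotype remain. Cells with under 500 genes or over 10% mitochondrial UMIs were left out. Counts were summed per genotype and gate, with exact Poisson, conditional ratio and Clopper-Pearson intervals (95%; SciPy 1.17.1). Cells were thinned to 1500 UMIs (seed 1). Clusters used Scanpy 1.11.5 and leidenalg 0.10.2 (2000 variable genes, 30 components, 15 neighbours, resolution 1) and were named only from marker lists. The deposited TCR tables give contigs with UMI counts, and a chain was found when a cell had at least 1 productive contig. The members, lists and tests were chosen with earlier results of these data known. All 33 members may be named; per role the member with most UMIs and the member with the lowest DP ratio have coordinates and full values, with the 3 lowest and 3 highest of the other replication genes per gate to choose from. The interval method was tested on simulated Poisson counts. These had no spread between cells or animals, so the simulation does not show how the intervals hold under such spread. A planned search of protein sequences was not run.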

Additional observations from a re-analysis of the deposited data

Results flagged for a closer look

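Summed replication gene ratios of I173A to WT went opposite ways in different gates for 3 clusters and 1 G2/M class, with each interval leaving out 1; the differences between gates were not tested. In cluster 9 the ratio was 1.13 in DP and 0.891 in CD8SP cells, and in cluster 12 it was 1.15 in DP and 0.847 in CD8SP cells. In cluster 6, which is led by Xcl1 and Nr4a3, it was 1.26 in CD4SP and 0.869 in CD8SP cells. In cells with 10 or more G2/M UMIs it was 1.12 in DP, 0.845 in CD8SP and 0.867 in CD4SP, where the class held 24 I173A and 40 WT cells. The part of depth in these ratios was not tested: median UMIs of cells with 10 or more G2/M UMIs were 9695 in I173A and 8036 in WT DP cells, and 13486.5 in I173A and 15631 in WT CD8SP cells.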

How the results depend on the processing

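No paired analysis was possible because the labels give no replicate numbers and each genotype is 1 sample per gate. In CD4SP 4 members missed the floor, which is in CPM and so already scaled to the UMIs of the group. Median UMIs per cell there were 5786.5 in I173A and 6079 in WT, above the 2750.5 and 2906.5 in DP. With each cell weighted equally the summed ratio was 0.892 in CD4SP, 0.648 in CD8SP and 0.646 in DP, the median log2 ratio −0.66 in CD8SP and −0.69 in DP, and 2 CD4SP members were called lower. Thinned to 1500 UMIs, the summed ratio was 0.663 in CD8SP and 0.623 in DP, the median −0.64 and −0.70, and 18 of 32 members were called lower in CD8SP and 1 of 25 in CD4SP. Without the 1% of barcodes with most UMIs the summed ratio was 0.837 in CD4SP, 0.626 in CD8SP and 0.609 in DP, the DP median −0.74, and 2 CD4SP members were called lower. Divided by the median ratio of all genes, the summed ratio was 0.892, 0.566 and 0.513 in CD4SP, CD8SP and DP. A stricter hashtag rule (20 counts, 10-fold) gave 0.935 in CD4SP and 0.528 in DP, a looser one (5 counts, 2-fold) 0.599 in CD8SP, and leaving out the member with most UMIs 0.557 in DP.

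Without G2/M-positive cells the summed ratio was 0.886 in CD4SP, 0.691 in CD8SP and 0.746 in DP, the median −0.61 and −0.52 in CD8SP and DP with 15 and 13 members called lower. The S-positive ratio, here over G2/M-negative cells only and not over all thinned cells, was 0.673 (0.564 to 0.803) in CD8SP. In DP it was 0.789 (0.559 to 1.11), not separated from 1. Log2 ratios in DP turned to 0.031 (−0.26 to 0.32) for Fen1 and 0.018 (−0.26 to 0.30) for Rrm1. Among G2/M-positive cells only, the summed ratio was 0.817 in CD8SP and 0.782 in DP, the median −0.26 and −0.31, members called lower 2 and 5 (1 in CD4SP), and the E2f1 log2 ratio in DP turned to 0.015 (−0.31 to 0.33). In DP these cells held cluster 0 in unlike shares by genotype, as given above. S-positive from 3 UMIs gave share ratios of 0.688 in CD8SP and 0.637 in DP, and from 6 UMIs 0.321 in DP.

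Leaving out clusters 9, 12 and 14, chosen after seeing the data, removes by construction 67.8% of I173A and 88.3% of WT member UMIs in DP, and 23.6% and 60.7% in CD8SP. The summed ratio was then 0.888 (0.873 to 0.902) in CD8SP and 1.03 (0.991 to 1.07) in DP, the median −0.16 and 0.021, and 0 members were called lower in either. In DP the log2 ratios turned to 0.45 (0.12 to 0.79) for Mcm3, 0.29 (0.015 to 0.57) for Fen1 and 0.34 (0.078 to 0.61) for Rrm1. They also turned for Mcm5 (0.31), Mcm6 (0.021), Prim1 (0.18), Rrm2 (0.18), Tyms (0.0924), Tk1 (0.079), Chaf1a (0.54) and Slbp (0.16), with intervals that included 0. In CD8SP Mcm10 turned to 0.13, also with an interval that included 0. With I173A cells weighted to the WT cluster shares, also chosen after seeing the data, the summed ratio was 0.942 in CD4SP, 0.943 in CD8SP and 1.11 in DP. As the clusters can follow the cell cycle, part of this change may be built in. Dropping the cell filter or changing the floor reversed no result and moved no count of calls by over 1.5 times.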

Other observations

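Cells with hashtag 5, which has no genotype in the labels, entered no comparison between genotypes, though they took part in the clustering and in the means and gene levels over all cells of a cluster. Their summed replication gene level was 1018 CPM in CD4SP, 3312 CPM in CD8SP and 3362 CPM in DP. S-positive cells made up 5.38% (4.57% to 6.29%), 25.8% (24.1% to 27.5%) and 15.6% (14.2% to 17.1%) of these cells in CD4SP, CD8SP and DP.

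Cluster 21 held 75 cells, hashtag 5 included, all from the CD4SP gate, and was led by E2f1, Ung and Chek1 among others, with 1.61 G2/M and 9.92 member UMIs per thinned cell. It held 10 I173A cells, 0.375% of that genotype, and 33 WT cells, 1.06%. Its members summed to 6959 CPM in I173A and 6776 CPM in WT cells. Over all its cells, Ung was 208 CPM in this cluster and 48.0 CPM in cluster 9, whereas E2f8 was 25.4 CPM in cluster 21, 145.7 CPM in cluster 9 and 291 CPM in cluster 14.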
